A study of Oryza sativa Japonica Group with 6 samples.

Results

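The type 2C protein phosphatases (PP2Cs) of rice were examined on 6 Affymetrix rice arrays in plants that overexpressed OsSKIPa, plants in which OsSKIPa was suppressed, and wild-type plants. Members were all probe sets whose single gene carries the symbol or synonym PP2C followed by a number, with or without the prefix Os. The gene table lists 60 such genes, of which 55 had a probe set. These 55 genes, of 17905 that the array's probe sets name singly, were read by 72 of the 57381 probe sets on the array, 43 genes by 1 probe set and 12 by several. OsPP2C41, OsPP2C49, OsPP2C50, OsPP2C65 and OsPP2C77 had no probe set named for them.

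The overexpression plants were line S58S, selected with 50 mM hygromycin, and the suppression plants were line S59R, selected with 50 mM G418, both given as in the labels. The wild type was the cultivar Zhonghua11. All plants were germinated on medium, moved to hydroponics at 10 days and collected at 1 month, with no stress treatment named in the labels. The labels speak of shoots in one place and of whole plants in another. Each group had 2 arrays analysed here, numbered 1 and 2 for overexpression and the wild type and 1 and 3 for suppression. Each array is labelled as a biological replicate, but nothing says how many plants or transformation events stand behind it. P-values therefore rest on the spread between arrays of a group, which may be technical in part. That spread was pooled over the 3 groups and drawn towards the spread of probe sets of similar signal. The fit had 3 residual and 5.2 prior degrees of freedom. Each standard error given below uses this shared spread, not that of the gene's own 2 arrays a group alone. The labels name no promoter for the transgene. Because each line has its own selection drug, line and drug cannot be told apart. No probe set was named for OsSKIPa, so its level was not checked on these arrays. With 2 arrays a group, the number of arrays limits the precision of every value.

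PP2Cs are metal-dependent serine/threonine phosphatases, and plants carry many more of them than animals do. The clade A members are best known as brakes on signalling by abscisic acid (ABA), the hormone of drought and seed dormancy. Without the hormone they dephosphorylate SnRK2 kinases, which rice calls SAPKs, and hold them inactive. With the hormone, receptors of the PYR/PYL/RCAR family bind clade A phosphatases and block them, so that the kinases phosphorylate their targets, among them bZIP transcription factors. Transcripts of many clade A genes are themselves induced by abscisic acid, in Arabidopsis and in rice. SKIP proteins, to which OsSKIPa belongs, are conserved partners of the spliceosome and of transcription factors.

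Signals are given on the deposited linear scale. Of the 72 member probe sets, 63 probe sets of 52 genes passed the filter on low signal, which asked for a signal above the array's own median in at least 2 of the 6 arrays. That is 87.5% of the member probe sets, against 53.03% of the array's probe sets without controls. The 9 that did not pass had signals of 1.7 to 77.5, and they include all probe sets of OsPP2C18, OsPP2C31 and OsPP2C51. The mean wild-type signal of the members ran from 4.6 to 4665, with a median of 565.6. Signals of different probe sets depend on the probes and are not set against each other as amounts of RNA.

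Within the family, 5 genes of clade A were higher in the suppression line than in the wild type, by 1.82-fold to 4.96-fold, and all of them were also lower in the overexpression line than in the suppression line. They are OsPP2C30, OsPP2C68, OsPP2C08, OsPP2C06 and OsPP2C09. A call means an adjusted p under 0.05 from limma, with Benjamini-Hochberg adjustment over all 30366 tested probe sets, and fold changes are on the log2(signal + 3.3) scale, which understates changes of dim genes. In suppression against the wild type, 5 of 63 member probe sets were called, all higher, where 2.3% of all tested probe sets were called and 0.955% were called higher. Clade A was taken from general knowledge of the rice PP2C numbering, not from the files. Of its 10 genes, 9 are in the gene table, 7 had a probe set and 6 were tested. Clade A held 5 of 6 tested probe sets called, and the other members held 0 of 57. These calls lean on the trend of variance on signal in the fit: without it limma called 0 of 63, with a lowest adjusted p of 0.056. With dim probe sets kept in the test it called 3 of 72, losing OsPP2C09 and OsPP2C68. The median log2 fold change in this comparison was 1.26 for the 6 clade A probe sets, 0.05 for the 57 others and -0.02 for all tested probe sets. As the arrays measure RNA of many cells at once, more cells of a type and more RNA per cell cannot be told apart in any value here.

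OsPP2C30 (Entrez gene 4332374) is a negative regulator of abscisic acid responses that binds a PYL receptor and the kinase SAPK2. Its signal was 374.5 and 332.8 in overexpression, against 1479.5 and 1932 in suppression and 461.9 and 247.9 in the wild type. Both suppression arrays stood far above the other 4 arrays, and the overexpression arrays lay between the wild-type arrays. Suppression exceeded the wild type by 2.31 ± 0.27 on the log2 scale (SE, n = 2 arrays each, limma adjusted p = 0.0064), which is 4.96-fold. Overexpression minus suppression was -2.25 on the log2 scale (limma adjusted p = 0.0043). Both calls held when any 1 of the 6 arrays was left out, with suppression minus wild type between 1.86 and 2.75 and a highest limma adjusted p of 0.041. Both were lost in the fit without a variance trend (limma adjusted p = 0.115 against the wild type and 0.0788 between the lines). The wild-type arrays of OsPP2C30 also differed most among the member probe sets tested, by 0.89 on the log2 scale.

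OsPP2C68 (Entrez gene 4346736), also named OsPP108, is an abscisic acid-induced clade A phosphatase. It gave 124.9 and 121.7 in overexpression, against 309.1 and 288.6 in suppression and 118.2 and 109.6 in the wild type. The 2 arrays within each group lay close together, and the suppression arrays were the highest. Suppression was 2.58-fold above the wild type, 1.37 ± 0.22 on the log2 scale (SE, n = 2 arrays each, limma adjusted p = 0.020). The difference of overexpression from suppression was -1.25 (limma adjusted p = 0.017). The call against the wild type was lost without either suppression array or either wild-type array, at log2 values of 1.31 to 1.42 and a limma adjusted p of up to 0.11. The call between the 2 lines was lost without any overexpression or suppression array, at values of -1.30 to -1.21.

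OsPP2C08 (Entrez gene 4324182) had signals of 572.4 and 479.0 in overexpression, 984.5 and 814.5 in suppression, and 387.4 and 309.6 in the wild type. The 3 groups did not overlap: suppression was highest, overexpression intermediate and the wild type lowest. Suppression was 2.57-fold above the wild type, 1.36 ± 0.18 on the log2 scale (SE, n = 2 arrays each, limma adjusted p = 0.0088). Overexpression minus wild type was 0.59 ± 0.18 on the same scale and did not pass (limma adjusted p = 0.61, unadjusted p = 0.0098). Overexpression minus suppression was -0.77 (limma adjusted p = 0.041). The call of suppression against the wild type was lost without suppression array 1 (1.23, limma adjusted p = 0.058) or wild-type array 2 (1.20, limma adjusted p = 0.0705). The call between the lines stood in 1 of the 6 fits with an array left out, the one without wild-type array 2, over values of -0.91 to -0.63.

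OsPP2C06 (Entrez gene 4324201), also named OsABIL1 after the Arabidopsis regulator ABI1, had signals of 1276.5 and 1268.8 in overexpression, 3309.8 and 2251.1 in suppression, and 1220.8 and 1211.8 in the wild type. Overexpression and the wild type lay within a narrow band, while both suppression arrays were higher and differed from each other more than the arrays of the other groups did. Suppression was 2.24-fold above the wild type, 1.16 ± 0.17 on the log2 scale (SE, n = 2 arrays each, limma adjusted p = 0.014). Between the lines, overexpression minus suppression was -1.10 (limma adjusted p = 0.011). Without either wild-type array the first call was lost, at values of 1.17 and 1.16 and limma adjusted p of 0.085 and 0.098. Without either overexpression array the call between the lines was lost, at -1.10 and -1.09 and limma adjusted p of 0.0529 and 0.067.

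OsPP2C09 (Entrez gene 4327465) gave 482.1 and 448.6 in overexpression, 871.2 and 969.6 in suppression, and 589.5 and 432.0 in the wild type. The overexpression arrays fell between the wild-type arrays, and the suppression arrays lay above all others. Suppression was 1.82-fold above the wild type, 0.86 ± 0.17 on the log2 scale (SE, n = 2 arrays each, limma adjusted p = 0.047), the smallest of the 5 calls. Leaving out any 1 of the 6 arrays ended this call, over values of 0.64 to 1.08 and limma adjusted p of 0.055 to 0.21. The value of overexpression minus suppression was -0.98 (limma adjusted p = 0.018), a call lost without any overexpression or suppression array, at -1.05 to -0.90.

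OsPP2C53 (Entrez gene 4339797), also named OsABIL2, is the clade A member that did not pass in any comparison. Its signals were 704.2 and 725.4 in overexpression, 782.0 and 789.2 in suppression, and 674.7 and 801.7 in the wild type, so that the suppression arrays lay between the wild-type arrays. Suppression minus wild type was 0.09 on the log2 scale (limma adjusted p = 0.77), and overexpression minus suppression was -0.14 (limma adjusted p = 0.60). OsPP2C51, known in rice as a promoter of seed germination, was dim on both of its probe sets. The brighter one had signals of 35.3 and 9.2 in overexpression, 49.2 and 41.0 in suppression, and 77.5 and 2.3 in the wild type. The other stayed at 20.7 or below in every array, and neither was tested.

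**Figure D1:**
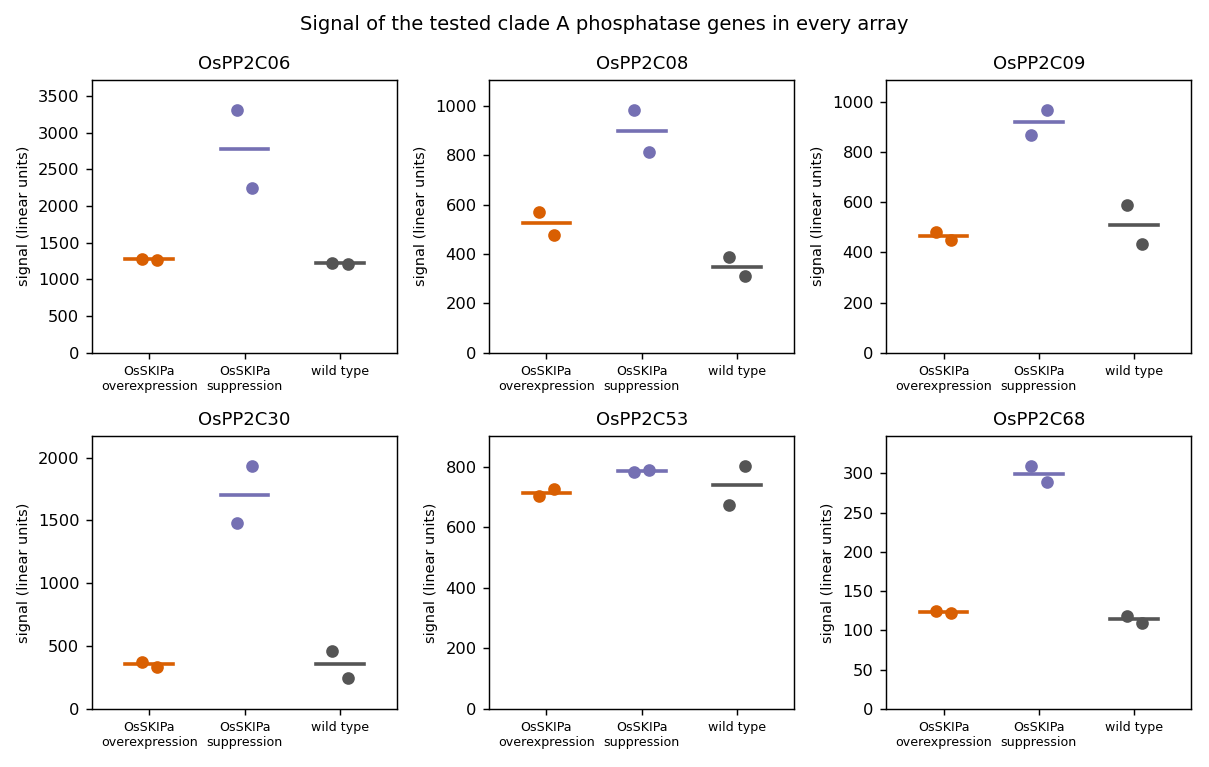
Deposited signal on a linear axis for the clade A PP2C probe sets that were tested, with overexpression left, suppression in the middle and the wild type right in each panel; dots are arrays (2 a group) and bars are group means. The suppression dots lie above all others for OsPP2C06, OsPP2C08, OsPP2C09, OsPP2C30 and OsPP2C68, and among the wild-type dots for OsPP2C53.

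In overexpression against the wild type, no member passed. The limma count was 0 of 63, where 0.0494% of all tested probe sets were called, and 4 of 63 had an unadjusted p under 0.05, all of them higher in overexpression, against 7.11% of all tested probe sets in either direction and 3.49% higher. The log2 fold changes of the 63 ran from -0.40 to 0.71 with a median of 0.05, and 61 of them lay within 0.5 of 0. The clade A values were 0.06 for OsPP2C30, 0.11 for OsPP2C68, 0.07 for OsPP2C06, -0.12 for OsPP2C09, -0.04 for OsPP2C53 and the 0.59 of OsPP2C08 given above. The overexpression and wild-type signals did not overlap for 25 of the 63 member probe sets, 19 of them higher in overexpression, against 18.9% of all tested probe sets higher and 19.2% lower.

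Among the members with the largest positive differences there, OsPP2C47 had signals of 2132.1 and 1955.9 in overexpression, 1420.4 and 1646.8 in suppression, and 1486.8 and 1429.7 in the wild type. Both overexpression arrays were the highest, with overexpression minus wild type at 0.49 ± 0.12 on the log2 scale (SE, n = 2 arrays each, limma adjusted p = 0.48). The dimmer OsPP2C47 probe set gave a smaller difference there, 0.20 (limma adjusted p = 0.82). OsPP2C71 gave 1450.9 and 1643.2 in overexpression, 1333.0 and 1357.5 in suppression, and 1126.1 and 1171.7 in the wild type, a difference from the wild type of 0.43 ± 0.11 (SE, limma adjusted p = 0.55). The dimmer OsPP2C71 probe set gave 0.09 in this comparison. The dimmer OsPP2C73 probe set read 107.9 and 91.9 in overexpression, 12.5 and 77.9 in suppression, and 54.2 and 65.3 in the wild type, a difference of 0.71 (limma adjusted p = 0.88). The 2 suppression arrays of that probe set differed by 2.36 on the log2 scale, the widest gap between arrays of a group among the tested members. The other tested OsPP2C73 probe sets, both brighter, gave 0.0051 and 0.11 in this comparison. On the negative side, the values were -0.33 for OsPP2C64, -0.27 for OsPP2C40, -0.26 for OsPP2C15, -0.23 for OsPP2C69 and -0.15 for 1 probe set of OsPP2C66, with limma adjusted p of 0.72 to 0.90. The other 2 tested OsPP2C66 probe sets, the brightest among them, had the opposite sign, at 0.21 and 0.23 (limma adjusted p = 0.81 and 0.95). OsPP2C40, also named OsPP65, read 1719.7 and 1562.3 in overexpression, 1999.7 and 2448.2 in suppression, and 2003.4 and 1958.0 in the wild type.

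**Figure D2:**
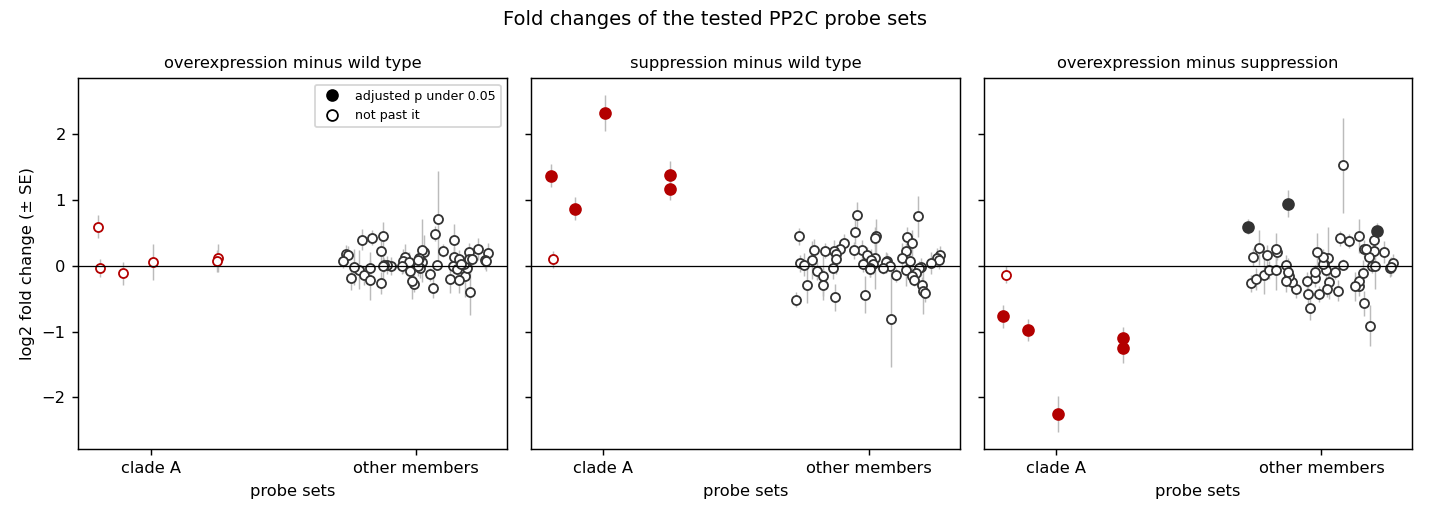
Log2 fold changes with standard errors for the 63 tested PP2C probe sets (vertical axis), clade A at the left of each panel and other members at the right, with small sideways shifts for legibility; filled symbols have an adjusted p under 0.05. No symbol is filled in overexpression minus wild type, 5 clade A symbols are filled in suppression minus wild type, and 8 symbols are filled in overexpression minus suppression.

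The direct comparison of both lines called 8 of 63 member probe sets, or 12.7%, against 6.56% of all tested probe sets. Of these, 5 were lower in overexpression than in suppression, where the background was 2.93%, and they are the clade A genes described above. The other 3, OsPP2C14, OsPP2C10 and OsPP2C39, lie outside clade A and were higher in overexpression, against a background of 3.63%. This comparison and suppression against the wild type use the same suppression arrays, so the clade A calls in both are not separate evidence. Without the trend of variance on signal 1 of 63 was called, OsPP2C68, and with dim probe sets kept 5 of 72. The median log2 value of overexpression minus suppression was -1.04 over the 6 clade A probe sets, -0.02 over the 57 others and 0.01 over all tested probe sets.

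OsPP2C14 had signals of 2926.7 and 2903.0 in overexpression, 1924.5 and 1943.6 in suppression, and 3025.2 and 2535.4 in the wild type. Both suppression arrays were the lowest of the 6. Overexpression exceeded suppression by 0.59 ± 0.11 on the log2 scale (SE, n = 2 arrays each, limma adjusted p = 0.021), and suppression minus wild type was -0.52 (limma adjusted p = 0.055). The call was lost without any overexpression or suppression array, at 0.58 to 0.60 and a limma adjusted p of up to 0.10. A second, dim OsPP2C14 probe set read 47.2 and 43.7 in overexpression, 30.2 and 10.5 in suppression, and 39.1 and 41.4 in the wild type, and was not tested.

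OsPP2C10 read 2014.9 and 2267.7 in overexpression, 1547.7 and 1426.2 in suppression, and 1806.2 and 2183.7 in the wild type. Its suppression arrays were again the lowest, and overexpression overlapped the wild type. Overexpression minus suppression was 0.52 ± 0.13 on the log2 scale (SE, n = 2 arrays each, limma adjusted p = 0.049), and suppression minus wild type was -0.42 (limma adjusted p = 0.14). Leaving out any 1 of the 6 arrays ended this call, over values of 0.44 to 0.61.

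OsPP2C39 gave 943.2 and 706.9 in overexpression, 359.1 and 501.9 in suppression, and 619.9 and 570.3 in the wild type, with overexpression highest, the wild type next and suppression lowest. The difference of overexpression from suppression was 0.94 ± 0.20 (SE, n = 2 arrays each, limma adjusted p = 0.034). Neither line passed against the wild type, at 0.46 for overexpression (limma adjusted p = 0.71) and -0.48 for suppression (limma adjusted p = 0.27). The call between the lines stood in 1 of the 6 fits with an array left out, the one without suppression array 3, over values of 0.70 to 1.18. The other OsPP2C39 probe set did not follow it, with 117.5 and 78.9 in overexpression, 89.9 and 104.8 in suppression, and 161.3 and 101.1 in the wild type.

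**Figure D3:**
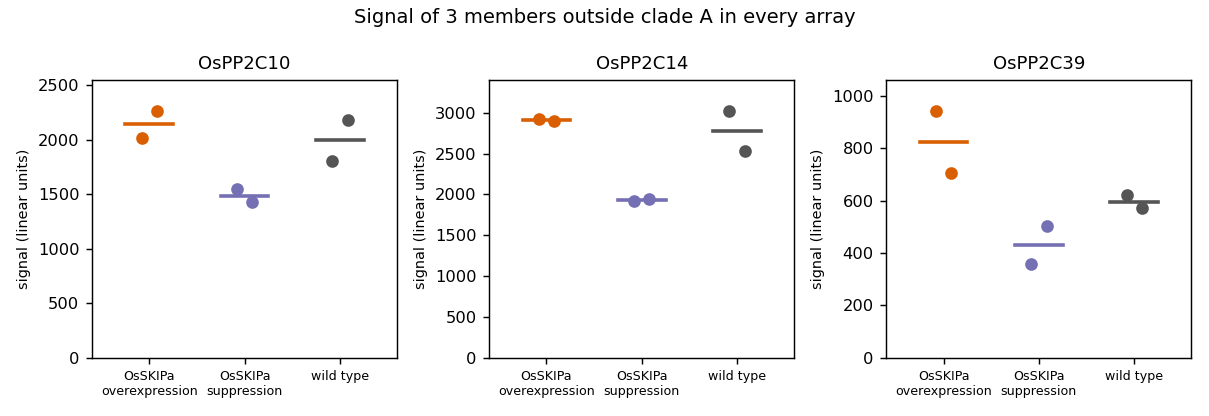
Deposited signal on a linear axis for OsPP2C10, OsPP2C14 and OsPP2C39, with overexpression left, suppression in the middle and the wild type right; dots are arrays (2 a group) and bars are group means. The suppression dots are the lowest in all 3 panels, and the overexpression dots of OsPP2C39 lie above those of the wild type.

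Other members with large differences between the lines did not pass. OsPP2C59 read 149.4 and 91.4 in overexpression, 239.7 and 206.6 in suppression, and 109.6 and 156.7 in the wild type, with overexpression minus suppression at -0.91 (limma adjusted p = 0.13). The OsPP2C73 probe set with the wide gap in suppression gave 1.52 (limma adjusted p = 0.25), against 0.02 and -0.25 on the gene's other tested probe sets. The brighter OsPP2C47 probe set gave 0.42 (limma adjusted p = 0.072) and the dimmer 0.04 (limma adjusted p = 0.91). In suppression against the wild type, OsPP2C62 read 1024.0 and 1011.0 in overexpression, 783.6 and 765.9 in suppression, and 941.3 and 956.3 in the wild type. Its groups did not overlap and its arrays lay close together, but the difference of suppression from the wild type, -0.29, did not pass (limma adjusted p = 0.23). OsPP2C69 gave -0.44 in the same comparison (limma adjusted p = 0.46).

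The suppression and wild-type signals did not overlap for 35 of the 63 member probe sets, 25 higher and 10 lower in suppression, against 23.2% of all tested probe sets higher and 25.5% lower. Between the lines 39 of the 63 did not overlap, 15 higher and 24 lower in overexpression, against 27.2% and 26.2% of all. Without regard to size, both suppression arrays stood above all 4 other arrays for 18 of the 63 member probe sets, 28.6%, against 16% of all tested probe sets. These 18 were 5 of the 6 in clade A and 13 of the 57 others. Both stood below the other 4 for 9 probe sets, 14.3%, against 17.1% of all. OsPP2C39, OsPP2C45, OsPP2C60 and OsPP2C62 ran in the order overexpression above wild type above suppression in every array, 4 of 63 member probe sets against 5.12% of all tested probe sets, and 0 of 63 ran in the opposite order, against 4.6% of all. OsPP2C60 illustrates the first order, with 2734.7 and 2926.8 in overexpression, 2105.0 and 2270.3 in suppression, and 2510.7 and 2324.0 in the wild type.

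**Figure D4:**
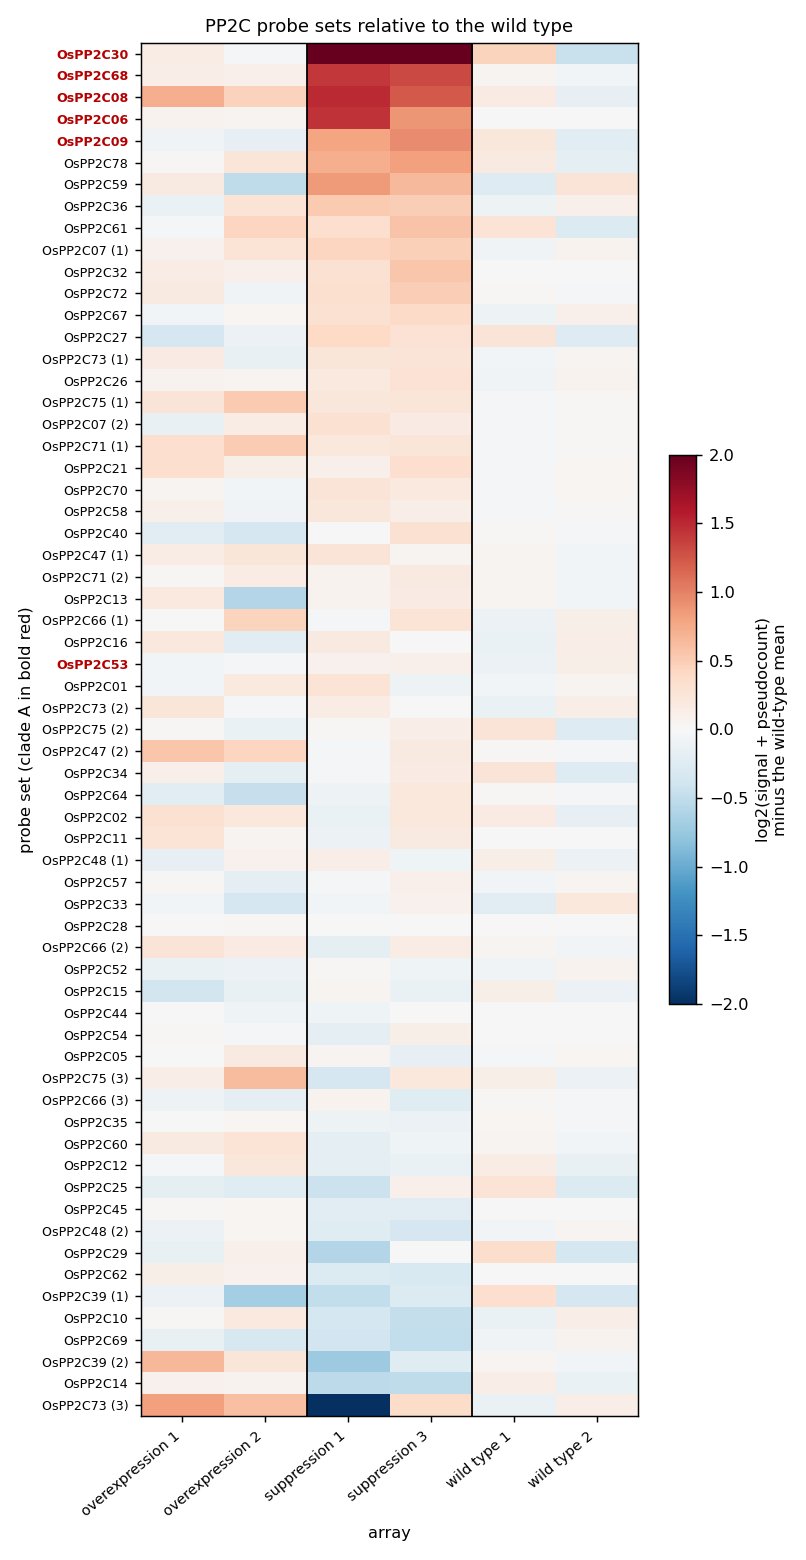
Log2(signal + 3.3) of each tested PP2C probe set in each array (columns: 2 overexpression, 2 suppression and 2 wild-type arrays) minus its wild-type mean, sorted by suppression minus wild type, with clade A names in bold red and numbers in brackets for several probe sets of a gene. Colour stops at 2 in either direction, which OsPP2C30 passes in both suppression arrays; the 5 called clade A genes fill the top of the plot.

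Among the 5 members with the highest wild-type signal, OsPP2C28 was close to constant, at 4642.3 and 4743.9 in overexpression, 4626.2 and 4654.5 in suppression, and 4660.8 and 4668.3 in the wild type. OsPP2C45 read 3844.9 and 3893.3 in overexpression, 3239.6 and 3262.6 in suppression, and 3761.5 and 3809.2 in the wild type, with suppression lowest. For OsPP2C05 the ranges overlapped, at 2822.1 and 3216.8 in overexpression, 2968.9 and 2533.8 in suppression, and 2764.4 and 2925.6 in the wild type. OsPP2C52 also overlapped between suppression and the wild type, at 2479.4 and 2502.8 in overexpression, 2782.6 and 2563.7 in suppression, and 2602.3 and 2855.2 in the wild type. OsPP2C14, described above, is the remaining one.

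A few members outside clade A have known roles beyond abscisic acid, and they are described here for those roles and not by the naming rule, with their values already seen. OsPP2C35 is XB15, which attenuates the rice immune receptor kinase XA21. It read 695.5 and 704.6 in overexpression, 644.0 and 636.6 in suppression, and 707.2 and 671.7 in the wild type, a narrow band with suppression at its lower edge. OsPP2C27, a negative regulator of cold signalling in rice, read 443.7 and 514.9 in overexpression, 736.7 and 684.9 in suppression, and 671.0 and 466.6 in the wild type. OsPP2C13, also named DCW11, read 1360.2 and 796.1 in overexpression, 1258.3 and 1334.6 in suppression, and 1236.4 and 1152.4 in the wild type, and its overexpression arrays differed by 0.77 on the log2 scale, the widest gap among the tested members in that group. None of these 3 was called in any comparison.

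Arrays of the same group differed by a median of 0.18 on the log2 scale over the tested members in overexpression, 0.15 in suppression and 0.12 in the wild type. Over all tested probe sets the same medians were 0.19, 0.20 and 0.18. For the 8 genes with several tested probe sets, the probe sets shared 1 sign in 4 genes for overexpression minus wild type, 4 for suppression minus wild type and 2 for overexpression minus suppression. They differed by over 0.5 on the log2 scale in 2, 1 and 3 of the 8 genes in the same order of comparisons, and in the comparison of the lines these were OsPP2C39, OsPP2C73 and OsPP2C75. Each of the 5 called clade A genes had a single probe set, so these calls have no second probe set beside them.

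The partners of clade A in abscisic acid signalling were read from a list of 28 genes by role, of which 25 had a probe set and 23 genes with 27 probe sets were tested. In overexpression against the wild type 0 of the 23 genes passed by limma, where 0.0494% of all tested probe sets did, and 3 of 27 probe sets had an unadjusted p under 0.05, against 7.11% of all. In suppression against the wild type 1 of 23 passed, ABA8OX2, where 2.3% of all tested probe sets did, and 12 of 27 probe sets had an unadjusted p under 0.05, against 17.8% of all tested probe sets. A gene passed where any of its probe sets did. With only the brightest probe set of each gene, the numbers of genes that passed were the same in all 3 comparisons. Between the lines 7 of 23 passed, where 6.56% of all tested probe sets did. Of these, 6 were lower in overexpression, against a background of 2.93%, and 1 was higher, against 3.63%. The median over the 27 probe sets was -0.21 on the log2 scale, against 0.01 for all tested probe sets.

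ABA8OX2 encodes an abscisic acid 8'-hydroxylase, an enzyme that breaks the hormone down. It read 805.5 and 666.4 in overexpression, 1422.1 and 1475.5 in suppression, and 696.9 and 803.7 in the wild type, with the suppression arrays above the rest. Suppression minus wild type was 0.95 ± 0.14 on the log2 scale (SE, n = 2 arrays each, limma adjusted p = 0.015), lost without any suppression or wild-type array, with a limma adjusted p of up to 0.099. Overexpression minus suppression was -0.98 (limma adjusted p = 0.0084), lost without overexpression array 2 (limma adjusted p = 0.057). Its homologue ABA8OX1 gave 0.41 in suppression minus wild type (limma adjusted p = 0.58) and -1.04 between the lines (limma adjusted p = 0.11). Between the lines ABA8OX1 passed without either wild-type array (limma adjusted p = 0.0499 and 0.0458). ZEP1, zeaxanthin epoxidase of hormone synthesis, gave 0.47 (limma adjusted p = 0.14) and -0.45 (limma adjusted p = 0.11) in the same order.

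The receptor PYL5 gave small differences, at 0.05 in suppression minus wild type (limma adjusted p = 0.80) and -0.06 between the lines (limma adjusted p = 0.75). Of the 10 kinases, SAPK6 and SAPK7 were lower in overexpression than in suppression. SAPK7 read 1248.4 and 1276.7 in overexpression, 2034.1 and 1869.3 in suppression, and 1333.4 and 1425.5 in the wild type, the suppression arrays being highest. Its value between the lines was -0.63 (limma adjusted p = 0.016), lost without either overexpression array or suppression array 1 (limma adjusted p up to 0.081), and suppression minus wild type was 0.50 (limma adjusted p = 0.057). SAPK6 gave -0.80 between the lines (limma adjusted p = 0.041), lost without any overexpression or suppression array, and 0.59 in suppression minus wild type (limma adjusted p = 0.15). SAPK9 did not pass between the lines, at -0.65 (limma adjusted p = 0.072), though it passed without either wild-type array (limma adjusted p = 0.0431 and 0.045). SAPK3 did not pass in suppression minus wild type, at -0.42 (limma adjusted p = 0.13).

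BZIP23, a bZIP factor of the abscisic acid and drought response, read 1058.4 and 1028.3 in overexpression, 2267.0 and 1677.3 in suppression, and 1303.0 and 1136.8 in the wild type. Between the lines it gave -0.90 (limma adjusted p = 0.017), lost without either overexpression array or suppression array 1 (limma adjusted p up to 0.092). In suppression minus wild type it gave 0.68 (limma adjusted p = 0.069). This value passed without suppression array 3 (limma adjusted p = 0.042) and also when every array was centred on its median. TRAB1, another bZIP factor of this pathway, gave 0.34 in suppression minus wild type (limma adjusted p = 0.20) and -0.05 between the lines (limma adjusted p = 0.86).

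Genes induced by abscisic acid were called in both directions between the lines. RAB21 and RAB16C belong to one family of closely similar dehydrin genes, so a probe set may read transcripts of both. RAB21, a dehydrin gene, read 1053.8 and 914.2 in overexpression, 472.7 and 145.8 in suppression, and 583.9 and 685.6 in the wild type. It was higher in overexpression than in suppression on both of its probe sets, by 1.89 (limma adjusted p = 0.043) and 1.11 (limma adjusted p = 0.045). Leaving out an array moved the first value between 1.05 and 2.72 and ended the call without any overexpression or wild-type array. The call of the second was kept when suppression array 1 was left out and lost without any other array. In suppression minus wild type the first probe set gave -1.26 (limma adjusted p = 0.19). With an array left out it ran from -2.09, without suppression array 1, to -0.42. The second probe set gave -0.42 with all arrays (limma adjusted p = 0.46).

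RAB16C, another dehydrin gene, ran the other way, at 98.8 and 177.8 in overexpression, 298.6 and 519.1 in suppression, and 176.1 and 164.8 in the wild type. Between the lines it gave -1.55 (limma adjusted p = 0.036), a call kept when suppression array 1 was left out and lost without any other array, over -1.96 to -1.13. In suppression minus wild type it gave 1.19 (limma adjusted p = 0.12). The brightest DHN1 probe set gave -0.61 between the lines (limma adjusted p = 0.019), a call lost without overexpression array 2 or either suppression array. It gave 0.27 in suppression minus wild type (limma adjusted p = 0.26). The other tested DHN1 probe sets, both dim, gave -1.91 and -0.34 between the lines (limma adjusted p = 0.10 and 0.68). In suppression minus wild type they gave 0.78 and -0.02 (limma adjusted p = 0.56 and 0.99).

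**Figure D5:**
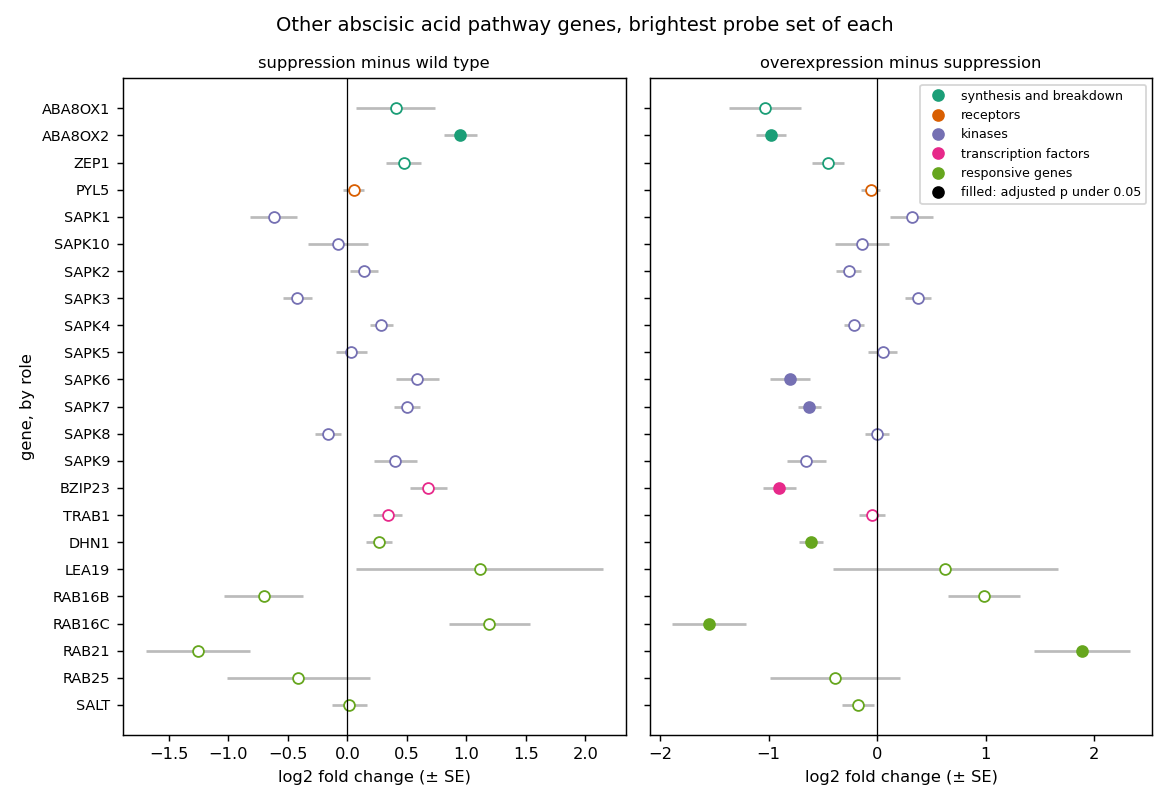
Log2 fold changes with standard errors (horizontal axes) for the brightest probe set of each tested abscisic acid pathway gene, grouped and coloured by role; the left panel is suppression minus wild type and the right panel overexpression minus suppression, on axes of different range, and filled symbols have an adjusted p under 0.05. ABA8OX2 is the filled symbol on the left, and 7 symbols are filled on the right, RAB21 alone to the right of 0.

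Across the series, 15 of 30366 probe sets were called in overexpression against the wild type, 698 in suppression against the wild type and 1992 between the lines. The summed signal of 7 root marker genes was 4702 and 5845 in overexpression, 10361 and 7597 in suppression, and 9689 and 6462 in the wild type, so overexpression was lowest. Of the 6 root marker probe sets tested, none was called against the wild type in either line. Between the lines AMT1-2 was called lower in overexpression, where 2.93% of all tested probe sets were, and IRT1 higher, against 3.63% of all. The gene given here as AMT1-2 also carries the name AMT1-3. Most of the root sum came from Lsi1 in every array. The sum of 5 genes of green tissue ranged from 66633 to 69302 in overexpression and 64281 to 69077 in suppression. In the wild type it ranged from 66190 to 72023. Both sums took the brightest probe set of each gene. CAB2R and RBCS made up most of the green sum in every array, so it says little of the dimmer GLK1, GLK2 and PPDKB. Of the root markers, the phosphate transporter gene PT6 did not pass the filter, at 35.3 or below in every array, and none of the markers was at 0 in any array. Green probe sets called were 2 of 11 lower in suppression than in the wild type, a dim probe set of GLK2 and that of PPDKB. Of all tested probe sets 2.3% were called there in either direction. The brightest GLK2 probe set gave -0.36 in that comparison (limma adjusted p = 0.14). The gene's remaining tested probe sets gave 0.24 and -0.61 (limma adjusted p = 0.45 and 0.42). Between the lines 4 of 11 were higher in overexpression, probe sets of GLK1, GLK2 and PPDKB, against 3.63% of all. No probe set of CAB2R or RBCS was called. On both 18S ribosomal controls the suppression arrays were lowest. The first read 4207.5 and 3759.1 in overexpression, 3467.8 and 2841.1 in suppression, and 3695.0 and 3742.8 in the wild type. The second read 5450.5 and 4992.2 in overexpression, 3673.9 and 3885.3 in suppression, and 4949.6 and 5132.3 in the wild type. The ratio of the actin control's 3' signal to its 5' signal was 7.70 and 6.74 in overexpression and 6.49 and 6.25 in suppression. In the wild type it was 4.83 and 7.14. The part of tissue makeup and of RNA composition in the PP2C results was not tested.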

How the data were processed

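Values came from the series' table for 6 arrays. Each deposited value is the intensity of 1 probe set on 1 array, on a linear scale. Per the labels, 6 µg of total RNA was used for each array. The authors' probe summary and background software are not given in the sources used here. The values are not centred per gene: array medians were 58.6 to 66.2, and the mean of every array, trimmed by 2% at the top and bottom, was 500.06. Gene names came from GEO's platform annotation and a RefSeq gene list (assembly ASM3414082v1, names only), with 22436 probe sets having 1 gene, 95 several and 34727 not listed.

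After leaving out 123 controls, log2(signal + 3.3), the pseudocount being the 10th percentile, was fitted with limma 3.58.1 (R 4.3.3; 3 groups, trended eBayes, 3 residual degrees of freedom) over 30366 probe sets above their array's median in at least 2 arrays, and tested on simulated data. Other pseudocounts, filters, scalings, fits, a replicate block and leaving out each array were tried. Genes named were clade A, called members, the 5 largest rises and falls without overlap per comparison, the 5 brightest members, and pathway genes by the same kind of rule. The members and lists were chosen with earlier results of these data known. An alias shared by unrelated genes was dropped from the lists.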

Additional observations from a re-analysis of the deposited data

How the results depend on the processing

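Calls rest on 2 arrays a group and on the shape of the variance estimate. Without a trend of variance on signal, limma called 0 of 63 PP2C probe sets in suppression minus wild type (lowest adjusted p 0.056). It called 1 of 63 in overexpression minus suppression. Over the array it called 0, 26 and 69 probe sets in overexpression minus wild type, suppression minus wild type and overexpression minus suppression. With no filter the PP2C counts were 3 and 5, and the array counts 425 and 1255, in the last 2 comparisons. Centring arrays on their medians gave 36 probe sets called in overexpression minus wild type and a PP2C median of 0.15 in suppression minus wild type, against 0.08 as deposited. Other pseudocounts, quantile normalization, a filter on the mean, fits of 2 groups and the brightest probe set of each gene left these counts within 1.5 times. Without any 1 array, PP2C calls ranged from 1 to 4 in suppression minus wild type and from 1 to 6 in overexpression minus suppression, and stayed at 0 in overexpression minus wild type. Array counts ranged from 5 to 36 in overexpression minus wild type, 171 to 583 in suppression minus wild type and 463 to 1410 in overexpression minus suppression. The PP2C median ranged from 0.062 to 0.161 in suppression minus wild type, from 0.03 to 0.06 in overexpression minus wild type and from -0.11 to -0.02 in overexpression minus suppression. Signs changed only for values that were not called and, outside 2 OsPP2C73 probe sets, only with an array left out. In overexpression minus wild type these were OsPP2C09 (-0.34 to 0.11), OsPP2C30 (-0.38 to 0.50) and OsPP2C53 (-0.165 to 0.0827). In suppression minus wild type they were OsPP2C53 (-0.0292 to 0.219), PYL5 (-0.0009 to 0.11) and ABA8OX1 (-0.12 to 0.93), and in overexpression minus suppression TRAB1 (-0.135 to 0.0383). The brightest OsPP2C73 probe set ran from -0.152 to 0.162 in overexpression minus wild type with an array left out and gave -0.0035 after quantile normalization. The next brightest ran from -0.0309 to 0.247 there and from -0.116 to 0.162 in overexpression minus suppression, where median centring gave -0.0235 and the replicate block -0.047. The replicate numbers did not pair the arrays: deviations of arrays numbered 1 correlated at -0.015 and -0.0657 across 2 pairs of groups. With the replicate number as a block, the PP2C calls were 1 and 1 and the array counts 99 and 319 in suppression minus wild type and overexpression minus suppression. Replicate number 3 occurs only in suppression, so this block set suppression array 3 aside and suppression was estimated from array 1 alone. The lower counts therefore cannot be read as an effect of blocking, since the fit also lost an array. The PP2C call kept in this fit was that of OsPP2C06 in both comparisons. OsPP2C30 was not called in it, at 1.85 and -1.79 in the same order of comparisons. The cause of these differences was not tested.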
